A study of Drosophila melanogaster with 2 samples.

Results

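The regions described here are E2f2 binding peaks that lay inside introns and away from the starts of protein-coding genes in whole Drosophila melanogaster embryos. They were taken from chromatin immunoprecipitation followed by sequencing (ChIP-seq) of embryos aged 0 to 24 h from a transgenic strain that carries E2f2 fused to eGFP, in which an anti-GFP antibody pulled down the fusion protein. There were 2 biological replicates and 1 group, no other genotype, treatment or untagged control was analysed here. Whole embryos hold many cell types, and which of them gave a peak cannot be told from these files. The series' list of 7312 peaks made from both replicates under a conservative threshold of the irreproducible discovery rate (IDR, the expected share of entries whose ranks do not repeat between replicates) is called the main list. An entry of this list was a member when it was not on chromosome X, its summit (the position of highest signal) lay more than 500 bp from every transcription start site (TSS) annotated for a protein-coding gene, and the summit fell in an intron and in no exon of any gene. This rule found 969 members, which is 13.2% of the main list (exact 95% interval 12.5% to 14.0%) and 16.4% of its 5918 entries outside chromosome X. The members formed 889 merged regions in the introns of 603 host genes. Below, promoter peaks are the 4222 main-list entries outside X with a summit within 500 bp of such a TSS, and intergenic peaks are the 569 entries outside X that lay beyond that distance and in no gene. Intronic candidates are 22565 ranked entries that met the same position rule, did not pass the threshold and overlapped no main-list entry. They formed 13123 merged regions, and tests against them counted entries.

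E2f2 is the E2F family member of the fly that acts mainly as a repressor. It binds DNA as a dimer with Dp and works with retinoblastoma family proteins in the dREAM complex, which keeps cell cycle and differentiation genes off. E2F proteins are best known at promoters, where they recognise sites that read TTTGGCGC or close variants. Introns of Drosophila genes, above all long first introns, hold many enhancers and alternative promoters, and also insulator sites bound by factors such as CTCF.

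Summit windows of strong members that held an E2F motif are shown first, because they are the clearest cases of the factor's own letters inside an intron. Each window reaches 100 bp to either side of the summit, in dm6 coordinates and on the plus strand, and capitals mark the E2F motif on either strand.
Eip74EF intron, chr3L:17597108-17597308: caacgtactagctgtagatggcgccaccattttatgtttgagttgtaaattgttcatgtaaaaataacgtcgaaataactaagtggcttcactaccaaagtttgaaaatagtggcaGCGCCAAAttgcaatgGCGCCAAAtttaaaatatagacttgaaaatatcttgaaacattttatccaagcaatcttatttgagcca
RluA-2 intron, chr2L:10479904-10480104: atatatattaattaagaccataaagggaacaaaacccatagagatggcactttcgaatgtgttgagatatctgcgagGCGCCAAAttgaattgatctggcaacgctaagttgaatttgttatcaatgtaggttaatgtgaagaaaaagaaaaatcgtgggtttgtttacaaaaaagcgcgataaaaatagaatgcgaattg
Rtnl1 intron, chr2L:5001396-5001596: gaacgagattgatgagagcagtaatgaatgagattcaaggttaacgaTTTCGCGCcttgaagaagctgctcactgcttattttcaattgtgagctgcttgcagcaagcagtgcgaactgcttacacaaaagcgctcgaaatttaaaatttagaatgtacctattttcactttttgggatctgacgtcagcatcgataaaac
Abd-B intron, chr3R:16969677-16969877: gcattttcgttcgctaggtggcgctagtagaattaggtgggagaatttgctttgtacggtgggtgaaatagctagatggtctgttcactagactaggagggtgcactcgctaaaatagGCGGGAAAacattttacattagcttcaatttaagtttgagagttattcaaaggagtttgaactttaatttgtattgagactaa
Eip74EF, an ETS domain transcription factor induced by the hormone ecdysone, carried 2 copies in the same direction. RluA-2 encodes a pseudouridine synthase, Rtnl1 a reticulon of the endoplasmic reticulum, and Abd-B the most posterior homeotic protein, and each window held a single copy. A member of comparable signal in an intron of CG17724 also held 2 copies.

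Another set of strong members held no E2F motif. In the window of bun, a TSC22 family transcription factor gene, a different word occurred 3 times, AAGCAGT or its reverse complement, marked here in capitals.
bun intron, chr2L:12520239-12520439: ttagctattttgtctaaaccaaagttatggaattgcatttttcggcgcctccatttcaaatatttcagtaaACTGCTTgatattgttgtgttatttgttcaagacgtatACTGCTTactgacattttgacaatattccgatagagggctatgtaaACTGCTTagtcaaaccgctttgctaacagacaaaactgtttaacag
Further windows show letters that were rare in the members, and a word of 8 letters that recurred among them. The capitals mark the CTCF-like letters AGGTGGCGC in nrv2, a subunit of the sodium pump, the DNA replication-related element (DRE) TATCGATA in CG42709, and the word CACTGAGA in ImpL2, which encodes a secreted insulin antagonist.
nrv2 intron, chr2L:6797460-6797660: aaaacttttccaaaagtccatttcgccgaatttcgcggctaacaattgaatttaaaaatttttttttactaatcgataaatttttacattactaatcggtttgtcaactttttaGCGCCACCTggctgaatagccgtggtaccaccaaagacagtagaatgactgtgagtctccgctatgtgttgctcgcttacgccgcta
CG42709 intron, chr3L:12794616-12794816: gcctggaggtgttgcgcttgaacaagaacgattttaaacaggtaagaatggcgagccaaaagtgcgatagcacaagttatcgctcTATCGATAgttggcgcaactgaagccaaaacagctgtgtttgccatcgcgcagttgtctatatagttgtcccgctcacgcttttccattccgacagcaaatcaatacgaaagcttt
ImpL2 intron, chr3L:4228275-4228475: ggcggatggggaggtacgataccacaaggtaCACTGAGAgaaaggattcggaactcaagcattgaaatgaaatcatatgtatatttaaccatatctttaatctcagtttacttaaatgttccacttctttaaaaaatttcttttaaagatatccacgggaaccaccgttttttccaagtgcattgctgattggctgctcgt

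Most members were weak peaks. The signal value is the number that the authors' peak caller gave each peak. Its scale (not given in the sources used here) limits comparison to within the main list. Signal values had a median of 120 in the members (lowest 2.29, quartiles 84.8 and 185, highest 1798), against 209 in promoter peaks (lowest 2.05, quartiles 113 and 530, highest 4459). Intergenic peaks had a median of 136 and intronic candidates 17.1. A value above the median of the whole list (174) was found for 270 of 969 members (27.9%, exact 95% interval 25.1% to 30.8%), against 2424 of 4222 promoter peaks (57.4%, 55.9% to 58.9%; odds ratio 0.286, interval 0.246 to 0.334, adjusted p = 8.58e-63 by a two-sided Fisher's exact test). Members were also below intergenic peaks by this measure (223 of 569, 39.2%; odds ratio 0.599, 0.481 to 0.746, adjusted p = 7.67e-06 by Fisher's exact test). The strong end was thin: 16 members (1.65%) reached a value of 1000, against 522 promoter peaks (12.4%) and 53 intergenic peaks (9.31%). Entries are not independent replicates, and these and all later tests over peaks describe the lists; p-values are adjusted over the 8 comparisons of position, signal and replicates or over the 20 motif tests.

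**Figure D1:**
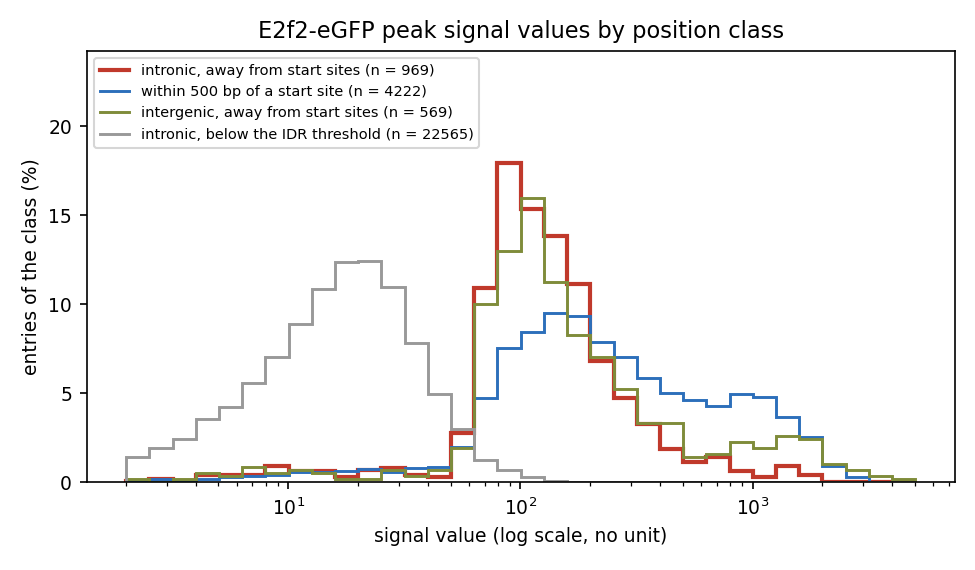
Distribution of the signal value (log axis) over the entries of each class, in percent of that class. Intronic peaks away from start sites crowd around their median of 120, while promoter peaks spread further up around a median of 209 and the candidates below the threshold lie around 17.1.

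The members at the low end were mostly side summits of other peaks. Of the 62 members with a signal value under 50, 57 (91.9%) lay in a merged region with a stronger entry of the main list, against 16 of 301 members (5.32%) with values of 50 to 100. The 3 members of lowest signal value lay in Fili (2.29), dac (2.58), a retinal determination gene, and shn (2.62), a zinc finger gene of the Dpp pathway. Over all members, 159 shared a merged region with another member.

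The 2 replicates supported the members unequally. Of the 969 members, 410 (42.3%, 39.2% to 45.5%) overlapped a thresholded peak of both replicates by at least 1 bp, 390 (40.2%) of replicate 2 alone, 23 of replicate 1 alone and 146 (15.1%) of neither. Among promoter peaks 3294 of 4222 (78.0%, 76.7% to 79.3%) overlapped a peak of both, and over the whole main list 68.8% did. The odds ratio of members against promoter peaks was 0.207 (0.178 to 0.239; Fisher's exact test, adjusted p = 2.22e-99). With replicate 1's list alone the shares were 44.7% of members and 79.9% of promoter peaks (main list 70.7%), and with replicate 2's list alone 82.6% of members and 94.2% of promoter peaks (main list 91.1%). Intergenic peaks lay between (52.6% in both replicates; odds ratio of members against them 0.662, 0.538 to 0.816, adjusted p = 1.09e-04 by Fisher's exact test). The number of members also depended on the replicate: the same position rule gave 462 entries in the thresholded list of replicate 1 and 1312 in that of replicate 2.

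From a signal value of 50 upward, support rose with signal value. In the band of 50 to 100, 24 of 301 members (7.97%) were found in both replicates, against 192 of 603 promoter peaks (31.8%). In the band of 100 to 200, 173 of 397 members (43.6%) and 743 of 1154 promoter peaks (64.4%) were. From 200 to 500 it was 148 of 162 members (91.4%) and 1045 of 1086 promoter peaks (96.2%), and all 31 members from 500 to 1000 were found in both, as were 585 of 586 promoter peaks. Within the band of 100 to 200 the odds ratio was 0.427 (0.339 to 0.539, Fisher's exact test, p = 5.87e-13). Under 50 it was 18 of 62 members (29.0%) and 207 of 271 promoter peaks (76.4%), in both classes above the share from 50 to 100. Of those 62 members 57 lay beside a stronger entry, whose part in this share was not tested.

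**Figure D2:**
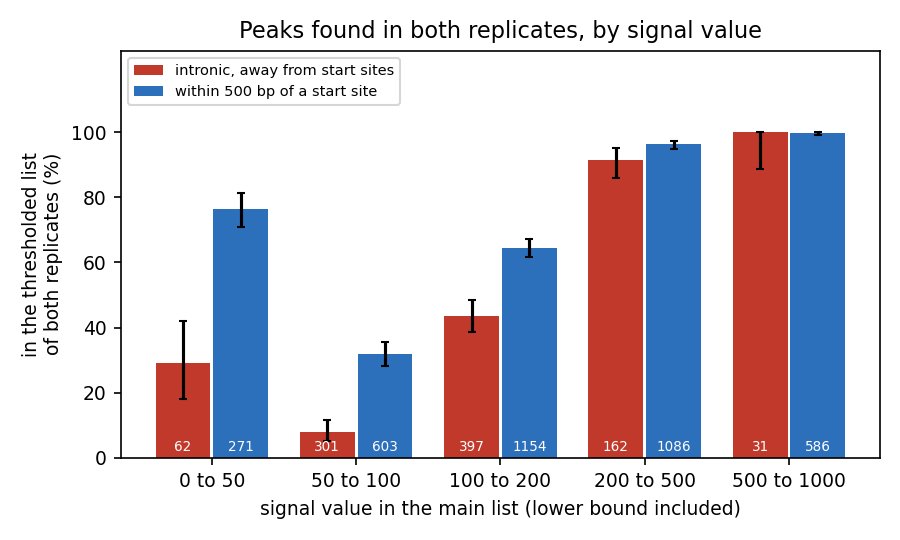
Share of entries that overlap a thresholded peak of both replicates, by signal value in the main list, with exact 95% intervals and the number of entries in each bar. The red bars of the intronic peaks stay below the blue promoter bars up to a signal value of 500, with 7.97% against 31.8% in the band of 50 to 100.

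In the ranked lists, which also hold entries below the threshold, 953 members had an overlapping entry in both replicates. Between the replicates Spearman's rho of their signal values was 0.762, given as a description over 953 entries that partly share regions. The strongest members stood far up in both lists. The CG43897 member had 760 in replicate 1 and 1040 in replicate 2, the CG11050 member 456 and 1324, the bun member 656 and 968, and the Eip74EF member 537 and 1046. Medians over the members were 37.6 in replicate 1 and 89.03 in replicate 2, and the levels of the separately made lists were not compared with each other.

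**Figure D3:**
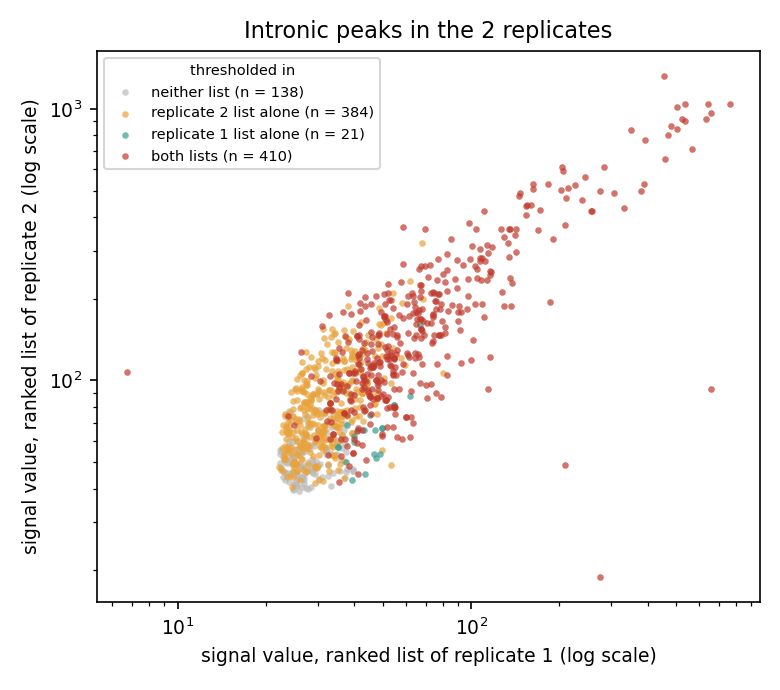
Signal value of 953 intronic peaks in the ranked list of replicate 1 (x axis) and of replicate 2 (y axis), both on log scales, coloured by which thresholded lists they overlap. The 410 points of both lists reach to the top right, and the 384 points of replicate 2 alone lie at low values of replicate 1.

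The 25 members of highest signal value, all found in both replicates, lay in genes of many kinds. CG43897 had the highest signal value, 1798. The CG11050 member (1776) sat in an intron of only 140 bp. The bun member (1610) lay 15507 bp from a start of bun, whose promoter peak had a value of 1501. The Eip74EF member (1581, summit at 17597208 on 3L) was the farthest of the 5 strongest from any coding TSS, at 20582 bp, in an intron of 31734 bp, and no start of Eip74EF was bound. CG17724 (1687), CtsL1 (1537), a cathepsin L protease gene, and shot (1420), the spectraplakin that links actin to microtubules, followed on 2R, and RluA-2 (1511) on 2L.

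The next members by value lay in the following genes. Acf, a chromatin assembly factor subunit, had 1418, HmgZ, a high mobility group protein, 1266, Trl, the GAGA factor, 1189, Daxx 904 and the transcription factor gene Adf1 845. The nrv2 member had 1346, CG42709 1330, SNF4Agamma, the gamma subunit of AMP-activated kinase, 1279, GstS1, a glutathione S-transferase gene, 1163 and Rtnl1 1107. A long noncoding RNA gene, lncRNA:CR42721, hosted a member of 921, the only host among the 25 that does not code for protein. The rest were Abd-B (890), chif (842), which encodes the Dbf4-like activator of the replication kinase Cdc7, comm3 (800), CG12769 (791), CG31688 (768) and dachs (758), an atypical myosin of the Fat growth pathway. No list was drawn up for these genes and no shared theme was tested.

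Of the 47 members with a value of at least 500, all were found in both replicates, 34 (72.3%) lay in a first intron and 30 within 2000 bp of a coding TSS. Their median distance was 1174 bp.

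Members lay nearer to gene starts than intronic candidates did, even beyond the 500 bp that the rule removed. The distance to the nearest coding TSS had a median of 2590 bp in the members (quartiles 1109 and 6127, highest 85884), against 4413 bp in the candidates. This distance was not tested. Of the members 20.9% lay between 500 and 1000 bp and 4.23% beyond 20 kb, against 9.40% and 8.69% of the candidates. Near the limit the members lay in CG10543 (501 bp, signal value 182), aru (506 bp, 313) and Kua (507 bp, 233), and the nearest intronic entries inside it in ATP8A (493 bp, 139), CG31523 (491 bp, 210) and CG31612 (490 bp, 500). The 48 members from 501 to 600 bp had a median signal of 175, and the 56 intronic entries from 401 to 500 bp a median of 124. Support by both replicates was 55.7% among the 203 members between 500 and 1000 bp (median signal 141), 41.7% from 1000 to 2000 bp and 28.0% between 10 and 20 kb (median signal 107).

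**Figure D4:**
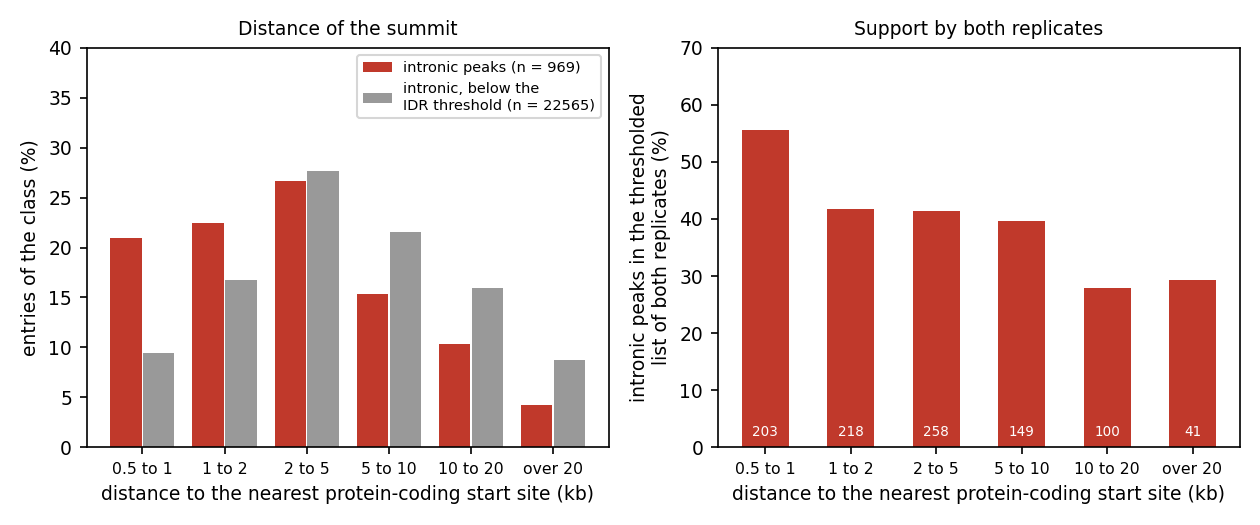
Left, distance from the summit to the nearest protein-coding start site for the 969 intronic peaks (red) and the 22565 intronic candidates below the threshold (grey), in percent of each class. Right, share of the intronic peaks found in the thresholded lists of both replicates in the same distance bins, with the number of peaks in each bar; it is 55.7% in the nearest bin and 28.0% between 10 and 20 kb.

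First introns held most of the members. A summit in the first intron of at least 1 transcript was found for 673 of 969 members (69.5%, 66.4% to 72.3%), against 12501 of 22565 candidates (55.4%, 54.8% to 56.1%; odds ratio 1.83, 1.59 to 2.10, Fisher's exact test, adjusted p = 3.60e-18). Against the candidates at or above their 75th percentile of signal value the odds ratio was 1.45 (p = 5.91e-07, Fisher's exact test). By the shortest intron of the named host at the summit, 600 members (61.9%) and 48.5% of candidates lay in a first intron. Members also lay nearer to a coding TSS (medians 2590 and 4413 bp), and the part of this distance in the first-intron shares was not tested. The introns were long, with a median of 8570 bp for members and 10018 bp for candidates, and 434 members (44.8%) lay in introns of at least 10 kb, as did 50.1% of candidates. For 769 members (79.4%) the nearest coding TSS was that of a host gene. A promoter peak summit was within 1000 bp of 74 members (7.64%) and within 5000 bp of 385 (39.7%).

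The members were spread over the autosomes. They made up 16.0% of the main-list entries of 2L, 16.2% of 2R, 15.7% of 3L and 17.6% of 3R, with medians of signal between 115.1 and 123.9, and 1 of 29 entries on chromosome 4, with a value of 491. The intervals of the large arms overlapped.

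Starts of noncoding genes, which the rule did not use, were near few members. A noncoding TSS within 500 bp was found for 31 members (3.20%, 2.18% to 4.51%), against 303 candidates (1.34%; odds ratio 2.43, 1.67 to 3.53, Fisher's exact test, adjusted p = 3.95e-05). Of the 31, 21 were near long noncoding RNA genes (highest signal 681), 4 near antisense RNA, 3 near snoRNA, 2 near tRNA and 1 near miRNA genes. With noncoding starts added to the rule 938 members would have remained.

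The E2F motif was present in few members, and its share followed signal value as it did at promoters. The 8-letter motif (TTTGGCGC, TTTCCCGC, TTTCGCGC or TTTGCCGC, either strand, within 100 bp of the summit) was found in 52 of 969 members (5.37%, 4.03% to 6.98%), in 369 of 4222 promoter peaks (8.74%, 7.91% to 9.63%) and in 7.89% of the main list. The odds ratio against promoter peaks was 0.592 (0.439 to 0.799, Fisher's exact test, adjusted p = 0.00116). The call ended among entries of at least the list's median signal (odds ratio 0.750, adjusted p = 0.374), in the thresholded list of replicate 1 (0.713, adjusted p = 0.110) and with a window of 200 bp to either side (0.791, adjusted p = 0.0682), all by Fisher's exact test. Intergenic peaks held the motif at 38 of 569 (6.68%), which was not tested. Intronic candidates held it at 1004 of 22565 (4.45%). Members did not pass the test against candidates (odds ratio 1.22, 0.914 to 1.62, adjusted p = 0.273, Fisher's exact test). That comparison turned with the setting. The odds ratio was 2.10 for members of at least the list's median signal against candidates of any signal (adjusted p = 0.00438, Fisher's exact test). By the same exact test it was 1.43 with a TSS window of 250 bp (adjusted p = 0.0129). It was 1.72 in replicate 1's list (adjusted p = 0.00968), but 0.874 in replicate 2's list (adjusted p = 0.481), again by Fisher's exact test. For these single-replicate lists the candidates still came from the ranked list of both replicates.

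Within levels of signal value the exact intervals of members and promoter peaks overlapped. Under 100 the motif was in 16 of 363 members (4.41%, 2.54% to 7.06%) and 42 of 874 promoter peaks (4.81%). From 100 to 200 it was in 3.53% of members and 4.85% of promoter peaks, and from 200 to 500 in 8.02% and 6.17%. At 500 or more it was in 9 of 47 members (19.1%, 9.15% to 33.3%) and 204 of 1108 promoter peaks (18.4%, 16.2% to 20.8%). No test was run within these bands, which were chosen after the data were seen, and the intervals of the members are wide. At 1000 or more 5 of 16 members held it. TTTGGCGC was the most frequent form, in 26 members, then TTTCCCGC in 13, TTTCGCGC in 10 and TTTGCCGC in 9. Over all members the motif was not gathered at the summit: it was found in 3.51% of members within 50 bp of the summit and in 2.37% to 3.61% in 50 bp steps further out, against 5.76% of promoter peaks within 50 bp and 1.85% to 3.29% further out.

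A few weaker members with the motif are given as examples, chosen after their values were seen. The His2Av member, in the gene of the histone variant H2Av, had a signal value of 185 and the motif 13 bp from the summit. RnrS, the small subunit of ribonucleotide reductase, hosted a member of 82.8 with 2 copies. Dark, the apoptosome adaptor, hosted one of 87.8, and Wdr62, a spindle protein gene, one of 102.

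Core promoter motifs differed most between members and promoter peaks. The classes were split by distance to a coding TSS, where such motifs lie. The tests against promoter peaks therefore could not separate these motifs from that split. The DRE was found in 7 members (0.722%, 0.291% to 1.48%), against 545 promoter peaks (12.9%, 11.9% to 14.0%; main list 10.2%; odds ratio 0.0491, 0.0232 to 0.104, adjusted p = 1.99e-40 by Fisher's exact test). The motif of M1BP (GGTCACACT), a factor of housekeeping promoters, was found in 3 members (0.310%) and 374 promoter peaks (8.86%; odds ratio 0.0319, 0.0102 to 0.0997, adjusted p = 1.14e-29 by Fisher's exact test). Against intronic candidates both were more frequent in the members, at low counts and by Fisher's exact test (DRE 0.253% of candidates, odds ratio 2.87, adjusted p = 0.0353; M1BP 0.0576%, odds ratio 5.39, adjusted p = 0.0474). Intergenic peaks, also away from start sites, held the DRE in 19 of 569 (3.34%) and the M1BP letters in 7 (1.23%). In windows with a GC content of 30% to 40% the DRE was in 2 of 509 members (0.393%), against 0.313% of candidates. In that range the M1BP letters were in 3 of 509 members (0.589%), against 0.0597% of candidates. The share of members with the full DRE, TATCGATA, stayed low at every signal level: 1 of 47 at 500 or more, against 217 of 1108 promoter peaks (19.6%). Its shorter core ATCGATA, a word chosen after the data were seen, did rise with signal value. It was in 3 of 363 members (0.826%) under 100 and in 9 of 47 (19.15%) at 500 or more. Promoter peaks held the core in 10.1% and 35.7% at these levels, and no test was run on it. The members with the full DRE lay in CG42709 (1330), Mapmodulin (366), CG7102 (342), woc (172), Set (120), for (90.6) and Tudor-SN (88.0). Those with the M1BP letters lay in CtsL1 (1537), gish (144) and hth (95.5).

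The cell cycle genes homology region (CHR, TTCGAA or TTTGAA) is contacted by the dREAM complex. It was less frequent in members than in promoter peaks and in intergenic peaks (266 of 569, 46.75%, not tested), and more frequent than in candidates. It was in 336 members (34.7%, 31.7% to 37.8%), against 48.5% of promoter peaks (odds ratio 0.565, 0.488 to 0.653, adjusted p = 3.61e-14) and 24.8% of candidates (odds ratio 1.61, 1.41 to 1.84, adjusted p = 9.37e-11, Fisher's exact tests). Windows differed in base composition, with a median GC content of 35.8% in members, 37.3% in promoter peaks and 43.3% in candidates. Among windows with a GC content of 30% to 40% alone, CHR was in 37.1% of members, 53.3% of promoter peaks, 50% of intergenic peaks and 33.8% of candidates. In the same range and order the E2F motif was in 3.73%, 8.76%, 6.75% and 2.86%. The part of base composition in the difference from candidates was not tested further.

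**Figure D5:**
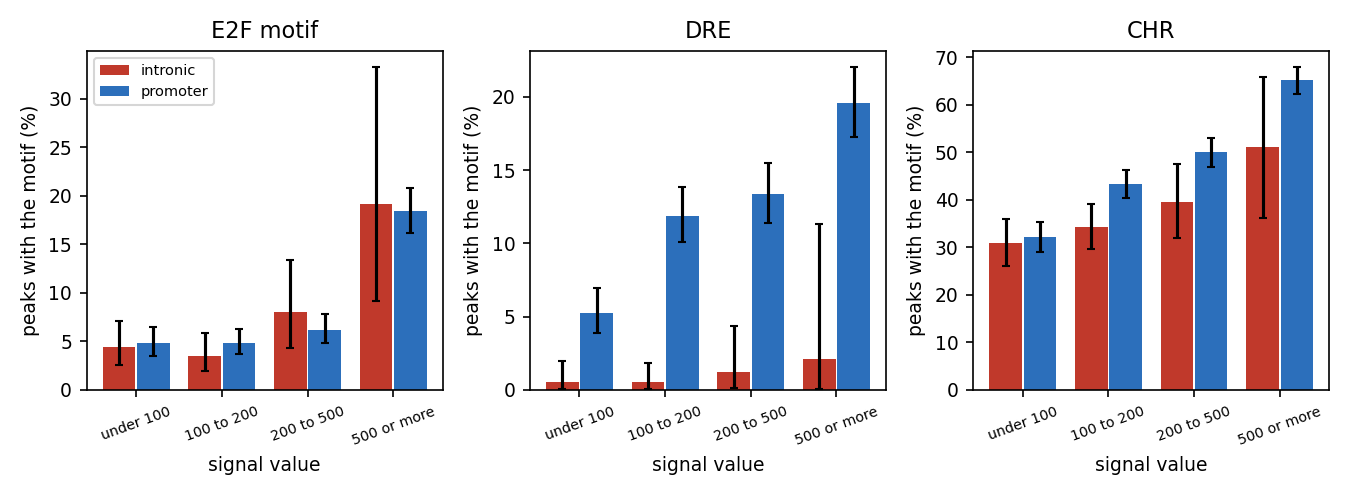
Share of intronic (red) and promoter (blue) peaks with an E2F motif, a DRE or a CHR within 100 bp of the summit, by signal value, with exact 95% intervals. The E2F shares are 19.1% of intronic and 18.4% of promoter peaks at 500 or more. The share of intronic peaks with the full DRE, TATCGATA, stays at 2.13% or below, and that of promoter peaks reaches 19.6%.

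The CTCF-like letters were rare but more frequent in members than in either set: 10 members (1.03%, 0.496% to 1.89%), against 0.403% of promoter peaks (odds ratio 2.58, 1.18 to 5.65, adjusted p = 0.0457) and 0.151% of candidates (odds ratio 6.91, 3.404 to 14.0, adjusted p = 3.09e-05, Fisher's exact tests). Of intergenic peaks 12 of 569 (2.11%) held them. CTCF is an insulator protein of the fly. The members lay in nrv2 (1346), Abd-B (890), SNF4Agamma (692), Jupiter (518), CG31087 (195), Egfr (157), retn (142), CG43980 (128), tun (85.5) and flfl (72.0), the first 7 of them found in both replicates. GAGA letters (GAGAGAG) were in 38 members (3.92%; main list 2.84%), against 2.46% of promoter peaks (odds ratio 1.62, 1.11 to 2.36, adjusted p = 0.0353) and 3.20% of candidates (odds ratio 1.24, adjusted p = 0.302, Fisher's exact tests). None of the 47 members of at least 500 held them, which allows a share of up to 7.55% by the exact interval. The letters of Zelda (CAGGTAG, 9 members), AP-1 (TGACTCA or TGAGTCA, 20 members) and Grainyhead (AACCGGTT, 4 members) did not pass the test against either set, with adjusted p-values from 0.270 to 1 by Fisher's exact test. A match is only a string of letters, and no binding of these factors was measured.

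The host genes were long and were often bound at their own start as well. Of the 603 hosts 592 were protein-coding genes, which is 5.04% of the 11749 such genes outside X. Hosts had a median length of 18413 bp, against 2507 bp for all protein-coding genes with an intron. Of the 592, 388 had a main-list summit no farther than 500 bp from a TSS of their own (65.5%, 61.6% to 69.4%), against 43.6% of the 9939 protein-coding genes with an intron. Among genes of at least 10 kb the shares were 276 of 429 hosts (64.3%, 59.6% to 68.9%) and 440 of 1170 other genes (37.6%, 34.8% to 40.4%). These long hosts were still longer than the other long genes, with medians of 27065 and 18822 bp. Of genes that hosted candidates alone, 1084 of 2336 (46.4%) were bound, with a median length of 6976 bp. In the list of replicate 1 alone 54.6% of hosts were bound at their start, and the share over all genes was not computed for that list. In the 663 members whose host was bound there, the intronic signal value exceeded that of the host's start peak in 158 (23.8%). Median signal of the members was 120 in bound hosts and 121 in the others, and shares in both replicates were 43.0% and 40.8%.

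Most hosts held a single region, and 73 hosts held 3 or more. Those 73 hosts carried 285 members (29.4%), had a median length of 50703 bp, and 55 of them were bound at a start. Their members had a median signal of 119, against 121 in other hosts, and the E2F motif was in 9 of 285 (3.16%), against 43 of 684 (6.29%) in other hosts, a difference that was not tested. The corepressor gene sbb (brakeless) led with 9 separate regions over 46612 bp, signal values from 112 to 337 (median 229), 6 of them found in both replicates and none with an E2F motif. CG32264 had 8 members in 7 regions (4.66 to 339, 6 in both replicates). Eip75B, an ecdysone-induced nuclear receptor, had 6 members (55.0 to 194, 5 in both replicates), and sick had 6 (80.6 to 532, 3 in both). SNF4Agamma had 8 members in 5 regions, from 8.42 to 1279.

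The other hosts with 5 regions were ush, a cofactor of GATA factors (69.8 to 248), cic, the repressor Capicua (70.7 to 247), tou (26.2 to 228), Snoo (95.7 to 227), the homeodomain gene hth (6.44 to 169), the nuclear receptor gene ftz-f1 (84.3 to 155) and RapGAP1 (74.5 to 147). Between 1 and 3 members of each of these genes were found in both replicates. Hosts with 4 regions were bun, shot, eIF5B (highest 673), simj, a NuRD subunit (616), shn (430), rdx (331), apt (298), gpp, the Dot1 histone methyltransferase (290), msn (235), cv-c (184), pum, the translational repressor Pumilio (170), px (140) and mtgo (109). None of the 4 mtgo members was found in both replicates.

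Of the gene lists examined, E2F, RB and dREAM genes gave 3 hosts of 9 and DNA replication and repair genes none of 45. These lists were chosen with earlier results known, and shares are set beside 5.04% of all protein-coding genes and 26.8% of the 1599 of at least 10 kb with an intron. The 3 hosts among the 9 E2F, RB and dREAM genes outside X (33.3%, exact 95% interval 7.49% to 70.1%) were mip120, a DNA-binding dREAM subunit (signal 136, 67.2 in replicate 1 and 98.0 in replicate 2), l(3)mbt (114) and E2f1, the activating E2F (2 members, highest 98.1). The mip120 member alone of these 4 was found in both replicates. Of 36 cell cycle regulators 2 were hosts (5.56%), tws, a regulatory subunit of protein phosphatase 2A (98.6), and Cdk4 (90.1), and of 45 DNA replication and repair genes none was (exact 95% interval 0% to 7.87%). These 3 lists hold short genes, with median lengths of 2734, 3004 and 2394 bp. Translation genes gave 2 of 22 (9.09%), pAbp (106) and eIF4G2 (103), neither found in both replicates.

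The remaining lists had hosts at shares from 11.4% to 37.5%. Nuclear receptor and ecdysone genes gave 7 of 25 (28.0%, 12.1% to 49.4%; median length 22426 bp), with 22 members, 12 of them in both replicates. After Eip74EF (1581) came Eip63E, a cyclin-dependent kinase (431), Eip75B (194), ftz-f1 (155), the coactivator tai (141) and Eip78C (100.1). Polycomb and trithorax genes gave 7 of 30 (23.3%), the highest 6 being Trl (1189), the SWI/SNF subunit osa (681), Psc of the Polycomb complex PRC1 (239), the methyltransferase gene trx (197), bab1 (143) and psq (92.3). Of segmentation and homeotic genes 4 of 35 were hosts (11.4%, 3.20% to 26.7%): Abd-B (890), lab (212), hth (169) and Antp (131).

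Signalling genes gave 21 of 61 (34.4%, 22.7% to 47.7%; median length 13383 bp), with 40 members, 17 in both replicates. The highest were shn (430), aos, a secreted inhibitor of the EGF receptor (374), the Wnt receptor fz (334), the adaptor drk (290), Mad, the Dpp effector (264), and the FGF ligand ths (259). Hippo growth control gave 6 of 16 (37.5%, 15.2% to 64.6%): ex (189), crb (187), hth, kibra (139), mats (104) and the kinase gene wts (97.4). Neuronal adhesion and guidance genes gave 13 of 44 (29.5%, 16.8% to 45.2%), with shot (1420), the Netrin receptor fra (227), scrib (194), the Robo ligand sli (174), Fas3 (173) and side (121) highest. Actin and muscle genes gave 9 of 32 (28.1%, 13.8% to 46.8%), led by cofilin, tsr (581), Msp300 (436), Fhos (195), jar (190), Zasp66 (171) and ena (164). The 26.8% of all genes of at least 10 kb lay within the interval of each of the remaining lists except segmentation and homeotic genes. It lay just above the upper end of that list's interval (26.7%). The median gene length of that list was 8419 bp, under the 10 kb of the comparison. Its interval held the 5.04% of all protein-coding genes. No list was tested.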

How the data were processed

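E2f2-eGFP was mapped by ChIP-seq in 2 biological replicates of whole embryos, with chromatin sonicated to 200 to 800 bp, per the labels. Intervals cover counting over entries only; the read depth, aligner and peak caller were not given in the sources used here. The deposited peak lists carry a signal value per peak, computed by the authors' caller. The deposited ranked list carries the −log10 of the global IDR. Entries under 2 (an IDR above 0.01) that overlapped no main-list entry were taken as candidates.

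Coordinates are dm6, counted from 1, and every peak lay within the chromosome lengths of the RefSeq copy of Release 6, which gave the sequences. Genes and TSSs came from Ensembl release 115. Of overlapping hosts, the protein-coding one with the shortest intron was named. A ranked entry that met the threshold and was absent from the main list (181 of these) was not used. Motif letters were searched on both strands in windows of 201 bp. Intervals (95%) are Clopper-Pearson for shares and Woolf for odds ratios, with 0.5 added to tables that hold a 0. Fisher's exact tests were two-sided with Benjamini-Hochberg adjustment, in Python 3.11.15 with scipy 1.17.1. The position rule, the motif scan and the share test were tested on simulated data.

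The members, lists, motifs and tests were chosen with earlier results of these data known. Signal bands, GC ranges, words and the candidates above the 75th percentile were chosen after seeing the data. Named hosts are those of the 25 strongest members, of 4 or more regions (the 48 with 3 regions are only counted), of the gene lists (up to 6 each), of the members at the distance limit, of the 5 strongest with an E2F motif, and of the 3 weakest. Hosts of rare motifs and of words, and the weaker E2F-bearing examples, were picked after their values were seen. Some sequence windows are not reported here.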

Additional observations from a re-analysis of the deposited data

How the results depend on the processing

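The number of members was 1468 in the larger thresholded list, 270 with the stricter threshold (a signal value of at least the list's median) and 462 to 1312 in the lists of single replicates; 7 other settings stayed within 1.5 times of 969. Lower support in both replicates, lower signal values, the share in first introns and noncoding starts kept their direction and their call in all 12, 10, 12 and 10 alternatives run (odds ratios 0.161 to 0.427, 0.210 to 0.305, 1.45 to 2.93 and 1.66 to 2.78). The E2F motif against promoter peaks kept its direction in 15 alternatives and lost its call in 3, with odds ratios of 0.750 under the stricter threshold, 0.791 with a motif window of 200 bp and 0.713 without replicate 2. With 1 replicate left out it ranged from 0.444, which passed the test, to 0.713. Against candidates the odds ratio fell below 1 in the larger list (0.938), with a TSS window of 1000 bp (0.995) and with the 7-letter motif (0.987), passed the test under the stricter threshold (2.10) and a TSS window of 250 bp (1.43), and ranged from 0.874 to 1.72 with 1 replicate left out. Leaving out a replicate changed the peak list only. Candidates still came from the ranked list of both replicates, also for first introns and noncoding starts. The share of hosts bound at their start was 43.5% under the stricter threshold, 69.7% with a TSS window of 250 bp and 54.6% to 67.7% with 1 replicate left out. In the 250 bp setting start peaks were still counted out to 500 bp, so a member between these limits could count as its host's start peak. The share over all genes was not computed for any of these settings, so these shares have no matching background. The causes were not tested. No paired analysis was possible because there was a single group. No control library was used, the fusion protein's level relative to native E2f2 is not known, and depth limits could not be computed.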

Other observations

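Words that recur in the members' windows were screened after the data were seen, so the values below are descriptions. Of 2080 words of 6 letters, ACAGTG had the highest odds ratio against intronic candidates among those past the adjusted threshold: it was in 196 members (20.2%), against 14.1% of promoter peaks, 14.6% of intergenic peaks and 8.24% of candidates. In windows with a GC content of 30% to 40% the shares were 23.8% of members, 14.8% of promoter peaks, 15.0% of intergenic peaks and 9.01% of candidates. CTGTAC was in 97 of 969 members, 4.69% of promoter peaks, 9.14% of intergenic peaks and 4.33% of candidates. The longer word CACTGAGA was in 53 members (5.47%), against 31 promoter peaks (0.734%), 24 intergenic peaks (4.22%) and 232 candidates (1.03%). In the GC range of 30% to 40% it was in 7.07% of members, 0.805% of promoter peaks, 4.91% of intergenic peaks and 1.75% of candidates. By signal value it was in 4.41% of members under 100, 7.05% from 100 to 200, 4.94% from 200 to 500 and 1 of 47 at 500 or more. Its strongest members under 500 outside 2R lay in ImpL2 (379), CG10283 (216) and CG3764 (191).

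Over all signal values AAGCAGT was in 40 members (4.13%), 3.53% of promoter peaks, 5.80% of intergenic peaks and 2.26% of candidates. Its share among members was highest at the strong end, where members were few. The word was in 11 of 47 members (23.4%) with a signal value of at least 500, against 42 of 1108 promoter peaks (3.79%) at that level. It was in 12 of 363 members (3.31%) under 100, 10 of 397 (2.52%) from 100 to 200 and 7 of 162 (4.32%) from 200 to 500. At least 3 copies within 100 bp of the summit were found in 7 of 969 members (0.722%), 2 of 4222 promoter peaks (0.0474%), 9 of 569 intergenic peaks (1.58%) and 1 of 22565 candidates (0.00443%). Among the 7 members were those in bun (3 copies each in members of 1610 and 82.1), Rtnl1 (3, 1107), lncRNA:CR42721 (3, 921) and dachs (5, 758), and all 7 were found in both replicates. The DRE core ATCGATA was likewise in 9 of 47 members (19.1%) of at least 500 and 3 of 363 (0.826%) under 100, against 35.7% and 10.1% of promoter peaks at these levels. No factor was assigned to any of these words.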
